A study of Danio rerio with 18 samples.

Results

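Of 13362 typical enhancers listed for the zebrafish heart at 1 year, 1104 overlapped the 10-month heart lists and no list of brain, testis or intestine. All lists of the series hold 66306 regions. The 1104 were chosen by the coordinates of the called regions alone. Each is a typical enhancer of the 1-year heart that shares at least 1 bp with a super-enhancer or typical enhancer of the 10-month heart and has 0 bp in any super-enhancer or typical enhancer of brain, testis or intestine. Acetylation of lysine 27 on histone H3 (H3K27ac) was mapped by sequencing of immunoprecipitated chromatin (ChIP-seq) from organs dissected from wild-type adult male fish of the AB strain. The 1-year heart had 2 ChIP and 2 input libraries of 20 pooled hearts each, and the 10-month heart had 1 of each, again from 20 pooled hearts. Intestine at 1 year (5 organs per replicate), brain at 10 months (12) and testis at 10 months (8) had 2 ChIP and 2 input libraries each. Chromatin was sheared to 200 bp in the 1-year samples and to 175 bp in the 10-month samples. Age, fragment size and number of libraries therefore differed together between the hearts and cannot be told apart. The same holds for any other difference in preparation.

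H3K27ac marks active enhancers and promoters, and enhancers are stretches of DNA that raise transcription of genes that may lie far away. Many enhancers are active in a small number of cell types, and acetylated sites found in a single organ are often used as candidates for that organ's own control regions. Super-enhancers are long clusters of enhancers with a high total of the mark, and typical enhancers are all other regions. A whole heart holds heart muscle, endothelium, epicardium, valve cells and blood, so a region of a heart list need not belong to heart muscle.

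Each tissue set was deposited as 1 list of super-enhancers and 1 list of typical enhancers, with no value per replicate. No test between samples could therefore be made, and the intervals below cover counting over regions only, not differences between fish. Read depth is unknown. Coordinates are those of the zebrafish build Zv9. No sequence or gene annotation of that build was used here, so regions are given by position, the genes and sequences in them were not analysed here, and the organ labels were not checked against marker genes.

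The rule kept a small part of the 1-year heart list. Of its 13362 typical enhancers, 9204 (68.9%, exact Clopper-Pearson 95% interval 68.1 to 69.7) shared base pairs with a 10-month heart enhancer. Of these 9204, 7174 (77.9%) also lay at least partly in an intestine enhancer, 5427 (59.0%) in a brain enhancer and 4145 (45.0%) in a testis enhancer. The 1104 regions that lay in none of them were 12.0% of the 9204 (11.3 to 12.7) and 8.26% of the whole typical list (7.80 to 8.74). They covered 7.0 Mb, or 5.03% of the base pairs of the typical list, and held 4.80% of its signal. These shares are set by the rule and are given as a description. Intestine matches the 1-year heart in age and fragment size, whereas brain and testis do not, and the lists differ in size. The organs were therefore not ranked by these shares.

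The share found again in the 10-month heart was listed for each pattern of overlap with the other organs. Of 2651 typical enhancers of the 1-year heart with 0 bp in brain, testis and intestine, 41.6% (39.8 to 43.5) overlapped a 10-month heart enhancer and 1547 did not. The share was 60.7% of 2815 regions that overlapped the intestine alone among the other organs, 51.7% of 1088 that overlapped the brain alone and 53.5% of 359 that overlapped the testis alone. It was 96.2% of 3128 regions that overlapped all 3. Longer regions overlap any list more easily, and the median length was 2999 bp for the both-heart regions, 1999 bp for the 1547 regions of the 1-year heart alone and 9799 bp for the 3009 regions found in all 5 lists.

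A few regions stood at the limits of the rule. Region starts fall on multiples of 200 bp, and the smallest overlap with a 10-month heart enhancer was 199 bp, seen in 4 regions. The 3 of these with the highest signal lay on chr7:60537001-60540599 (3599 bp, 5.53% covered by the 10-month heart), chr23:856001-858599 (2599 bp, 7.66%) and chr4:11826601-11828199 (1599 bp, 12.4%). Just outside that limit, with no 10-month heart overlap, were chr18:23453401-23456199, with a gap of 201 bp to a 10-month heart enhancer, and 2 regions with a gap of 601 bp, chr11:15896401-15899599 and chr7:42242401-42244199. Altogether 11 regions of the 1-year heart alone came within 1 kb of a 10-month heart enhancer.

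The other limit was contact with another organ. The regions chr3:19950601-19958799 and chr15:20286601-20289199 qualified with a gap of 1 bp to a testis enhancer, and chr20:27715201-27720399 with a gap of 201 bp to a testis enhancer. Region ends stop 1 bp short of the next 200 bp step, so a gap of 1 bp is the one between regions in adjoining steps. Left out with 199 bp in an intestine enhancer were chr20:20666601-20687599, which also had 199 bp in a brain enhancer, chr13:28111801-28117399 and chr22:26034601-26034799. Of the 9204 regions shared by the hearts, 718 were left out with under 1 kb in another organ. For the kept regions closeness is a gap, which is not comparable with an overlap. Of the 1104, 13 (1.18%) had an enhancer of another organ within 1 kb and 346 (31.3%) within 10 kb. In the 1-year heart alone these shares were 1.49% and 34.5%.

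The both-heart regions were short for enhancers shared by the hearts. Their median length was 2999 bp (95% interval of the median 2799 to 3199, from binomial order statistics), with lower and upper quartiles of 1599 and 7599 bp and a range of 199 bp to 82.8 kb. Regions shared by both hearts and the intestine alone had a median of 5999 bp (5199 to 6599, n = 1708), and all 13362 typical enhancers had 3799 bp (3599 to 3999). Regions over 10 kb made up 19.4% of the both-heart set, 36.0% of the heart and intestine set and 31.7% of all typical enhancers. Among the typical enhancers shared by the hearts, the both-heart regions were 17.5% of those under 1 kb, 17.8% at 1 to 2 kb and 18.4% at 2 to 4 kb. The share was 14.8% at 4 to 8 kb, 9.84% at 8 to 16 kb and 3.78% (3.09 to 4.58) over 16 kb. It was therefore nearly level up to 4 kb and lower in each longer class. The rule of 0 bp in other organs itself favours short regions, so these lengths are given as a description. With up to 10% of a region allowed in other organs the median was 3799 bp, the value of all typical enhancers.

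**Figure D1:**
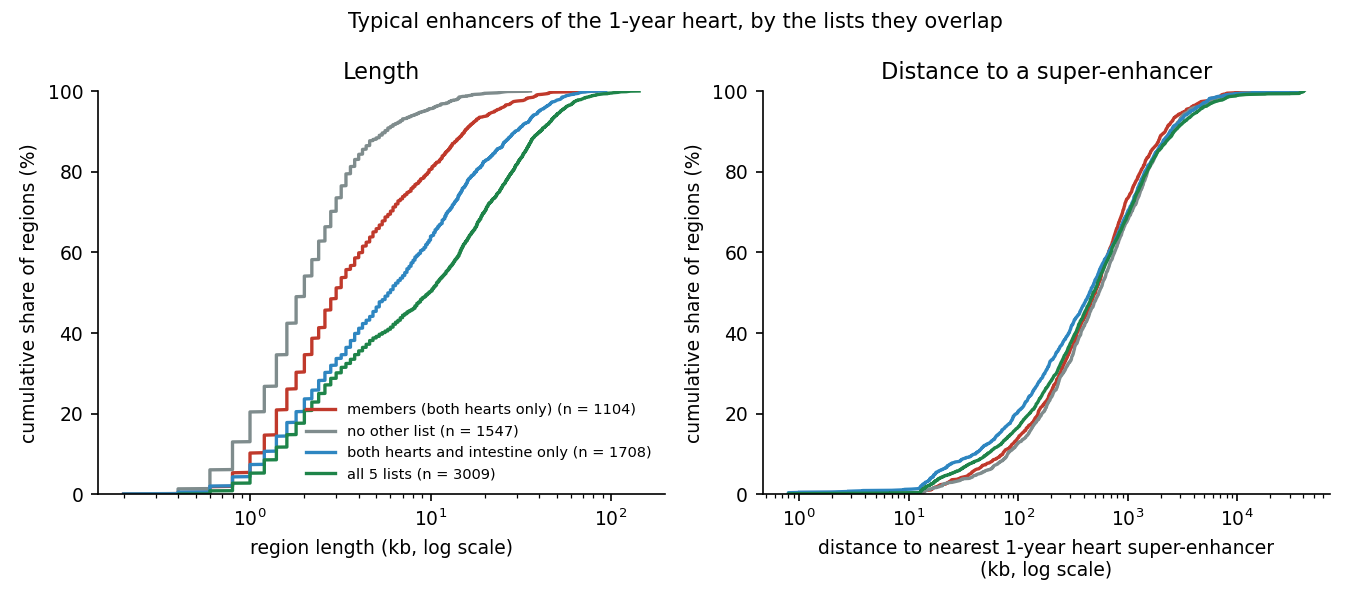
Cumulative share of regions (%) against region length (left, kb, log scale) and against distance to the nearest 1-year heart super-enhancer (right, kb, log scale), for 4 groups of 1-year heart typical enhancers by the lists they overlap. The both-heart curve (n = 1104) lies between the 1-year heart alone (median 1999 bp) and heart with intestine (median 5999 bp) for length, while the distance curves lie close together.

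Most of these regions were a single stretch of signal and not a joined cluster. The deposited names give the number of loci joined for 1049 of the 1104, and 55 (4.98%) carry a plain number without it. Of the 1049, 686 (65.4%, 62.4 to 68.3) were a single locus, 224 joined 2 loci and 139 (13.3%) joined 3 or more, up to 13. The single-locus share was 88.3% in the 1-year heart alone, 45.8% in heart with intestine, 40.4% in all 5 lists and 55.9% in all typical enhancers. With up to 10% of a region allowed in other organs, the both-heart share was 56.9%. Single-locus both-heart regions had a median length of 1999 bp, close to the 1799 to 1999 bp of the other groups, so much of the difference in length between the groups lay with joined regions. With 2 loci the median length was 8599 bp, with 3 loci 14499 bp and with 4 loci 21999 bp.

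The longest both-heart regions were joined clusters whose 10-month counterpart was often far shorter. Picking by length in the 1-year list itself favours shorter counterparts, so this is given as a description. The longest lay on chr19:48691001-48773799 (82.8 kb, 13 loci, 0.307 signal units per bp), and only 5.07% of it lay in 10-month heart enhancers. Next came chr12:39330601-39404799 (74.2 kb, 12 loci, 0.399 units per bp, 50.9% covered) and chr1:6140801-6206999 (66.2 kb, 8 loci, 0.400 units per bp, 55.3% covered). The chromosome 1 region held a 10-month enhancer of 36599 bp and was the most isolated of the 5 longest, with the nearest brain enhancer 145 kb away, the nearest testis enhancer 284 kb away and the nearest intestine enhancer 296 kb away. The region chr16:47043401-47091199 (47.8 kb, 7 loci) was 7.11% covered and chr6:44171001-44216799 (45.8 kb, 9 loci) was 38.9% covered. The region chr16:3305401-3343999 (38.6 kb, 8 loci, 32.1% covered) completed the 5 regions with the most loci.

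Signal per base pair, the deposited signal divided by region length, had a median of 0.474 units per bp in the both-heart regions (95% interval of the median 0.464 to 0.481), with quartiles of 0.398 and 0.559. The median was 0.475 in the 1-year heart alone, 0.480 in heart with intestine, 0.524 in all 5 lists and 0.478 in all typical enhancers. These pooled values mix lengths, and signal per bp was lower in longer regions. Among single-locus regions alone the both-heart median was 0.519 (quartiles 0.459 to 0.609, n = 686), against 0.489 in the 1-year heart alone (n = 1304), 0.586 in heart with intestine (n = 705) and 0.861 in all 5 lists (n = 1178). Among joined regions it was 0.379 in the both-heart set, against 0.364, 0.394 and 0.427 in the same 3 groups.

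Within each length class the groups kept the same order. The both-heart median was above that of the 1-year heart alone in 6 of 6 length classes, at 1.05 to 1.13 times its value. It was below the heart and intestine median in 6 of 6 classes, where heart with intestine was at 1.07 to 1.13 times the both-heart value, and below the median of all 5 lists in 6 of 6, where the ratio was 1.16 to 1.70. At 1 to 2 kb, for example, the medians were 0.547 in both hearts only, 0.502 in the 1-year heart alone, 0.614 in heart with intestine and 0.930 in all 5 lists. The quartile ranges of the both-heart regions and of those of the 1-year heart alone overlapped in every class, whereas in the 4 classes up to 8 kb the upper quartile of the both-heart regions stayed below the lower quartile of the regions in all 5 lists. These quartiles were 0.610 and 0.752 at 1 to 2 kb, 0.516 and 0.629 at 2 to 4 kb and 0.491 and 0.498 at 4 to 8 kb. Whether a region is called depends on its signal, in these lists and in the others, so the grouping is not independent of the signal and no test was made.

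**Figure D2:**
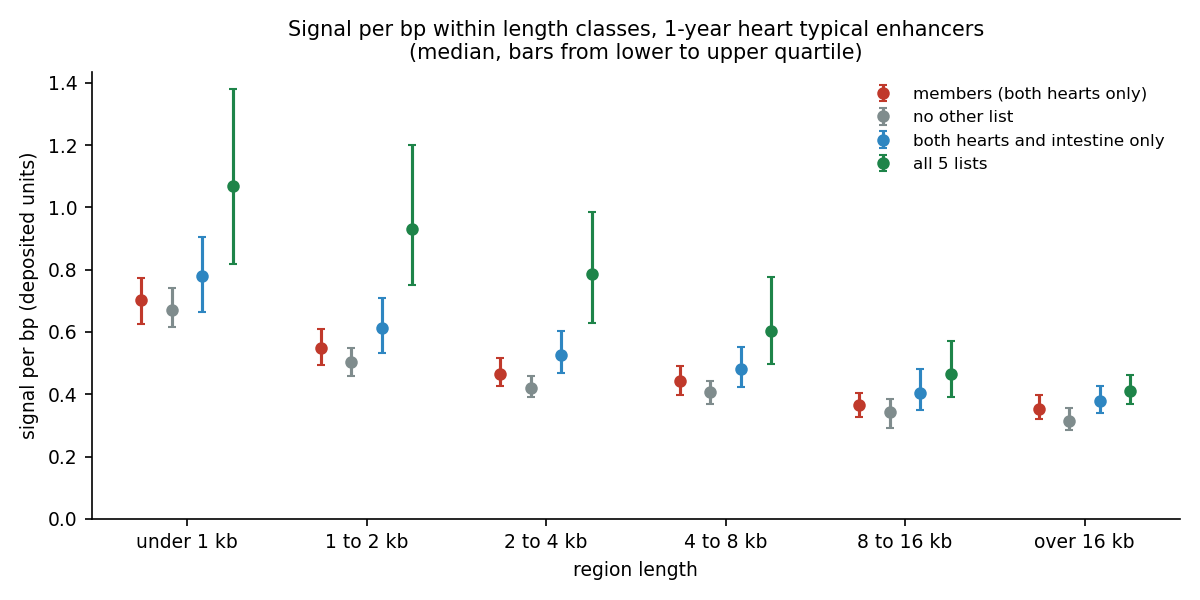
Median signal per bp in deposited units of 1-year heart typical enhancers in 6 length classes, for 4 groups by the lists they overlap. Points are medians and bars run from the lower to the upper quartile. Both-heart regions sit above the 1-year heart alone and below the other groups in each class, for example 0.465, 0.421, 0.527 and 0.787 units per bp at 2 to 4 kb.

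The 5 highest values per bp belonged to regions of 599 to 8199 bp. The region chr3:19950601-19958799 (8199 bp) led with 1.21 units per bp. It lies 1 bp from a testis enhancer, so asking for no other organ within 1 kb would leave it out. It shares 48.8% of its length with a 10-month heart enhancer of 21599 bp. The region chr13:29005201-29008199 (2999 bp, 1.08 units per bp) was wholly covered by a 10-month heart enhancer and lay 0.801 kb from an intestine enhancer. The region chr23:45026001-45026599 (599 bp, 1.06 units per bp) was wholly covered and had no enhancer of another organ within 12.8 kb. The region chr23:7383201-7383999 (799 bp, 1.06 units per bp) lay inside a 10-month heart super-enhancer of 139399 bp and 16.4 kb from a 1-year heart super-enhancer. The region chr20:2934801-2936399 (1599 bp, 1.03 units per bp) was 62.5% covered, with the nearest other organ, intestine, 16.4 kb away.

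By total signal, 18 both-heart regions (1.63%) carried more than the lowest 1-year heart super-enhancer (12569 units), against 8.88% of all typical enhancers. It was 0 of 1547 in the 1-year heart alone, 8.96% in heart with intestine and 18.8% in all 5 lists. Total signal is a sum over the region, and these shares were not adjusted for the different lengths of the groups. The count of 0 of 1547 allows a share of up to 0.194%, taking 3 regions as the limit. The 18 were 24.2 to 82.8 kb long, joined 2 to 13 loci and lay on 12 chromosomes, with signals of 12795 to 29605 units. None of the 18 lay in a 10-month heart super-enhancer, and 8 lay within 100 kb of a 1-year heart super-enhancer.

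The 10-month heart covered most of the median both-heart region. The median region was 75% covered by 10-month heart enhancers (95% interval of the median 71.0 to 80.0), 325 of 1104 (29.4%) were wholly covered and 54 (4.89%) were covered by under 10%. Summed over base pairs the cover was lower, 46.8% of 7.0 Mb, since long regions were covered less. Regions under 1 kb had a median cover of 100%, those of 2 to 4 kb 76.9% and those over 16 kb 20.0%. Other typical enhancers shared by the hearts, those that also lay in another organ, had medians of 100%, 80.0% and 46.6% in the same classes. At 4 to 8 kb the medians were 45.4% and 64.0%, and at 8 to 16 kb 25.4% and 54.9%, so the both-heart median was the lower in each class above 4 kb.

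**Figure D3:**
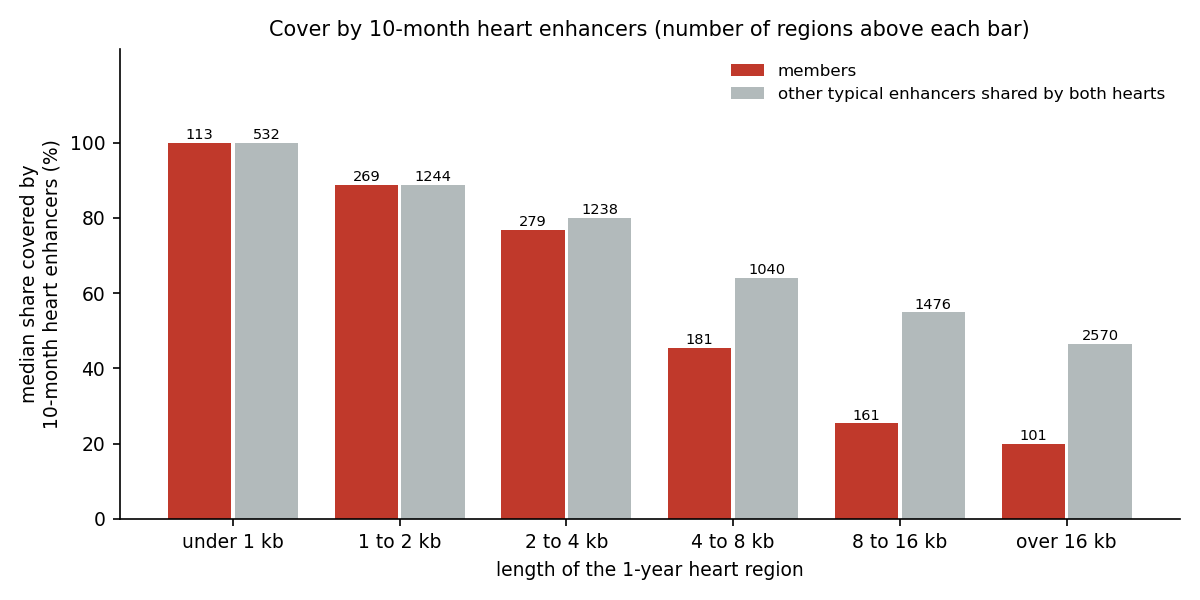
Median share of a 1-year heart region covered by 10-month heart enhancers (%) against region length, for both-heart regions and for the other typical enhancers shared by the hearts. The number of regions stands above each bar. The bars are close up to 4 kb and part above it, with 45.4% and 64.0% at 4 to 8 kb and 20.0% and 46.6% over 16 kb.

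The match between the hearts was mostly a pair of regions. Of the 1104, 1080 overlapped a single 10-month heart region, 22 overlapped 2 and 2 overlapped 3, and together they touched 1108 regions of the 10-month heart. Among the 1080 pairs, 70 (6.48%) had the same start and end. In 475 (44.0%) the 10-month region lay inside the 1-year region, in 255 (23.6%) the 1-year region lay inside the 10-month region, and in 280 (25.9%) each extended beyond the other. The 1-year region was the longer of the pair in 597 (55.3%) and the shorter in 386 (35.7%). The median length of the 10-month regions was 2199 bp, against 2999 bp for the 1-year regions. Seen from the other heart, 107 of the 1108 10-month regions (9.66%) reached an enhancer of brain, testis or intestine elsewhere along their length. That left 978 of the 1104 both-heart regions (88.6%) with every 10-month counterpart also free of the other organs.

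Signal in the 10-month heart could be compared for a small minority. The 13802 regions of the 10-month list carry 2269 names and 2266 different signals, and all regions of a name carry the same signal. For 328 of the 1104 (29.7%) the signal of a 10-month counterpart matched that counterpart's own length, but regions of equal length can share a name, and 172 single-locus pairs of this kind held 86 different 10-month signals. A signal that matched the length of a single region of the list was found for the counterparts of 86 both-heart regions, a limit chosen after the values were seen. These gave 57 pairs of one typical enhancer in each heart. In 12 of the pairs both regions were single loci, with 0.372 to 1.08 units per bp in the 1-year heart and 0.408 to 0.780 in the 10-month heart. The scale between the lists is not stated, so only ranks can be related. The Spearman correlation of signal per bp was 0.909 over the 12 pairs and 0.479 over all 57. Over the 172 single-locus pairs, copied signals included, it was 0.430. Among other typical enhancers shared by the hearts it was 0.885 over 105 single-locus pairs and 0.714 over 760 pairs. These values run across regions that share libraries and caller, length was not held fixed, and regions are not independent replicates.

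**Figure D4:**
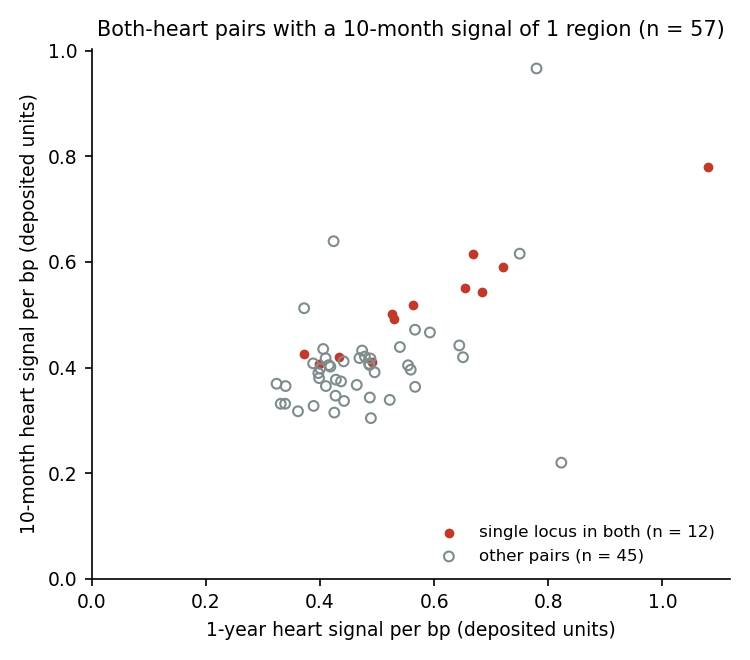
Signal per bp in deposited units in the 1-year heart (x axis) and the 10-month heart (y axis) for 57 both-heart pairs of typical enhancers whose 10-month signal matched the length of a single region. Filled points are the 12 pairs of single loci, whose ranks follow each other closely (Spearman correlation 0.909), and open points are the other 45 pairs.

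Signal per bp was also split by cover among short single loci. At 1 to 2 kb the median was 0.539 units per bp in 104 wholly covered regions and 0.498 in 24 regions covered by under 50%. At 2 to 4 kb it was 0.475 in 68 wholly covered regions and 0.451 in 59 covered by under 50%. Only 3 regions under 1 kb were covered by under 50%, at 0.692, with 0.707 in the 80 wholly covered.

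A small group lay in super-enhancers of the 10-month heart. They numbered 24 of 1104 (2.17%, 1.40 to 3.22), in 16 super-enhancers on 12 chromosomes. The share was 4.52% (4.10 to 4.96) of all 9204 typical enhancers shared by the hearts. In heart with intestine it was 5.15% (4.15 to 6.31) and in all 5 lists 4.85% (4.11 to 5.68). The class of a 10-month region is as deposited and was not checked against its signal. For 17 of the 24 the signal of a 10-month counterpart matched that counterpart's own length, against 311 of the 1080 with a typical counterpart. The 24 regions were also described by length, cover and signal. Their median length was 1899 bp with a range of 799 to 12199 bp, against a median of 2999 bp in the 1080 whose counterpart was a typical enhancer. Of the 24, 20 were wholly covered, against 305 of the 1080. Within 100 kb of a 1-year heart super-enhancer lay 8 of the 24, against 146 of the 1080. The median signal of the 24 was 0.501 units per bp, against 0.474 in the 1080. Length was not held fixed here, and all both-heart regions of 1 to 2 kb had a median of 0.547. The most base pairs in a 10-month super-enhancer were held by chr8:31117001-31122599 (5599 bp, inside a super-enhancer of 89199 bp). It was followed by chr1:26413601-26418799 (4599 of 5199 bp), where the 10-month super-enhancer was itself only 4599 bp long. The regions chr12:36399601-36404199 (4599 bp), chr4:10655201-10660199 (4599 of 4999 bp) and chr22:15771601-15775999 (4399 bp) came next. Of these 5 regions, 4 carried no number of loci in their names and lay 0.601 to 3.80 kb from an enhancer of another organ, and the chromosome 1 region lay 237 kb from any.

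Both-heart regions were found on all 25 chromosomes. Their share of the 1-year heart typical enhancers ran from 5.51% on chromosome 25 (22 of 399, 3.49 to 8.23) to 11.0% on chromosome 18 (51 of 463, 8.31 to 14.2), around 8.26% over all chromosomes. The largest counts were 71 of 714 typical enhancers on chromosome 7 (9.94%), 70 of 764 on chromosome 5 (9.16%) and 63 of 618 on chromosome 13 (10.2%). Exact intervals held the overall share on 23 chromosomes, lay above it on 1 (chromosome 18) and below it on 1 (chromosome 25). As these are the extremes of 25 values, no chromosome is singled out. Per Mb, with chromosome length taken as the highest end in any list, the density ran from 0.387 on chromosome 4 to 1.17 on chromosome 13. All 1-year heart typical enhancers had their lowest and highest density on the same chromosomes, at 6.72 and 11.4 per Mb. On chromosome 4, 22 of the 24 both-heart regions lay before the midpoint. So did 351 of the 417 typical enhancers and all 27 super-enhancers of the 1-year heart on that chromosome. Beyond the midpoint there were 66 typical enhancers of the 1-year heart, of which 2 were both-heart regions.

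**Figure D5:**
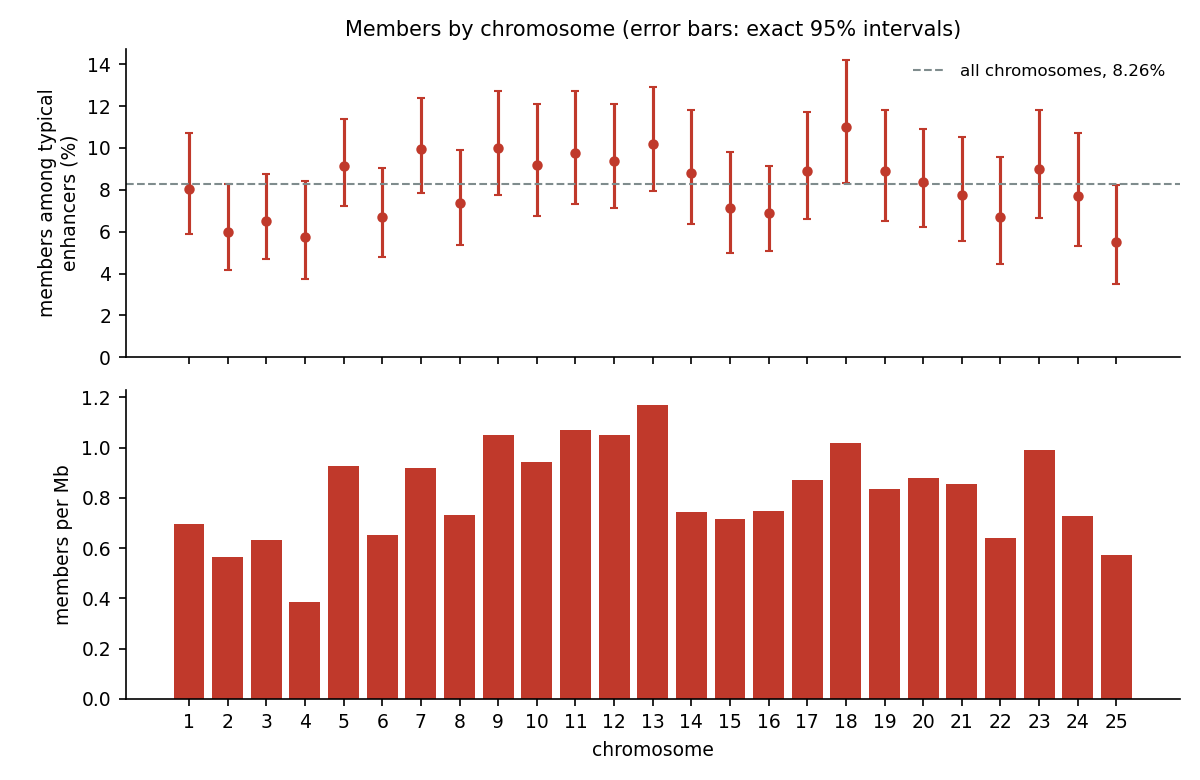
Both-heart regions as a share of 1-year heart typical enhancers on each chromosome (top, %, points with exact 95% intervals, dashed line at 8.26%) and per Mb of chromosome (bottom). Shares run from 5.51% on chromosome 25 to 11.0% on chromosome 18. Chromosome 4 has the lowest density, 0.387 per Mb, and also the lowest density of all 1-year heart typical enhancers, 6.72 per Mb.

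Some both-heart regions followed each other along the chromosome. Of the neighbouring sides of both-heart regions in the 1-year heart list, 354 (16%) were another both-heart region and 112 (5.07%) a super-enhancer, against 7.84% and 5.78% for the sides of all typical enhancers. Together 320 of the 1104 (29.0%) stood in 143 groups of at least 2 that followed each other with no other 1-year heart region between them. The cover of the surroundings by other organs was not measured.

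The longest such groups held 6 regions and lay on chromosomes 12 and 5. On chromosome 12 the group with the higher signal spanned 273 kb from 39132001 to 39404799 and included the second longest both-heart region. Its members were 1599 bp to 74.2 kb long, with 0.326 to 0.548 units per bp, and 13.4% to 98.8% of each lay in 10-month heart enhancers. The group began 58.4 kb from a 1-year heart super-enhancer. On chromosome 5 the 6 regions spanned 152 kb from 67291401 to 67443399, were 599 to 5599 bp long, and carried 0.392 to 0.888 units per bp. A group of 5 followed at chr12:44013801-44176199, and groups of 4 at chr5:57146801-57478999 and chr13:29146801-29291199.

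Most both-heart regions were far from super-enhancers of the 1-year heart. Their median distance to the nearest of the 850 was 508 kb (95% interval of the median 455 to 561), with quartiles of 196 kb and 1086 kb. It was 545 kb (493 to 593) in the 1-year heart alone, 448 kb (408 to 492) in heart with intestine, 485 kb (456 to 524) in all 5 lists and 482 kb (466 to 497) in all typical enhancers. These medians mix single and joined regions. Among single loci alone the both-heart median was the lowest, at 544 kb, against 573 kb in all typical enhancers. The single-locus median was 561 kb in the 1-year heart alone, 585 kb in heart with intestine and 634 kb in all 5 lists. Within 100 kb lay 154 (13.9%, 12.0 to 16.1) both-heart regions, against 12.7% (11.1 to 14.4) in the 1-year heart alone, 20.4% (18.5 to 22.4) in heart with intestine and 17.1% (16.5 to 17.8) of all typical enhancers. At the other end, 294 (26.6%) lay over 1 Mb away, against 29.9% of all typical enhancers. The lower share close to super-enhancers was seen among longer regions. Within 100 kb lay 12.9% of the both-heart regions of 4 kb or more, against 20.7% of other typical enhancers of that length, and 14.7% of the shorter ones, against 14.3%.

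Distances to super-enhancers of other sets were also long. The median both-heart region was 626 kb from one of the 749 super-enhancers of the 10-month heart, 437 kb from one of the 1145 of the intestine, 728 kb from one of the 664 of the brain and 1102 kb from one of the 581 of the testis. The values for all typical enhancers of the 1-year heart were 611, 322, 603 and 931 kb for the same sets, lower than the both-heart median in each. Regions of the 1-year heart alone lay farther still, at 743, 475, 736 and 1173 kb. No intervals were computed for these medians. The rule leaves out regions that touch another organ, and its part in these distances was not tested.

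The both-heart region nearest to a 1-year heart super-enhancer was chr7:44568801-44571399 (2599 bp, 0.585 units per bp), 4.60 kb away and without a number of loci in its name. Regions with such a number lay at least 12601 bp from each other in this list, and the next 4 were at 12.8 to 13.4 kb. They were chr23:9154601-9156599, chr9:34868401-34871199, chr6:30167401-30169399 and chr15:35131801-35141799. The 55 regions without a number of loci lay at a median of 282 kb, against 544 kb for single loci. The same order was seen in all typical enhancers, at 185 and 573 kb, and in the 1-year heart alone, at 314 and 561 kb. In heart with intestine the medians were 141 and 585 kb, and in all 5 lists 155 and 634 kb. The 2 farthest were those on chromosome 4 beyond the midpoint, from 59694601 to 59695999 at 38277 kb and from 34386401 to 34386599 at 12969 kb. The 12969 kb region was the only both-heart region of 199 bp. The regions chr7:9176801-9177599 (10507 kb), chr22:608801-624199 (9825 kb) and chr17:952601-957199 (9687 kb) came after them. Leaving out chromosome 4 gave a median of 512 kb.

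Signal per bp was set against that distance for single loci. Single-locus both-heart regions had medians of 0.531 units per bp under 25 kb (n = 27), 0.561 at 25 to 50 kb (n = 28) and 0.498 at 50 to 100 kb (n = 45). The medians were 0.509 to 0.515 in the 3 classes between 100 kb and 1 Mb and 0.543 over 1 Mb (n = 196).

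The nearest enhancer of another organ was usually close. The median gap from a both-heart region to the nearest enhancer of brain, testis or intestine was 17.6 kb, with quartiles of 7.60 and 35.3 kb and a highest value of 398 kb. For the 1547 regions of the 1-year heart alone the median gap was 15.6 kb. Intestine was the nearest organ for 470 both-heart regions (42.6%), brain for 369 (33.4%) and testis for 265 (24.0%), and the median gaps to these organs were 31.5, 40.1 and 51.3 kb. In the 1-year heart alone the shares were similar, at 46.0%, 31.2% and 22.9%, with median gaps of 28.0, 36.2 and 48.6 kb. The lists differ in number of regions, 15042 for intestine, 13235 for brain and 10015 for testis, in the same order as the gaps. Only 51 both-heart regions (4.62%) were over 100 kb from every enhancer of the other organs, against 3.68% in the 1-year heart alone.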

How the data were processed

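The labels place 18 libraries in 5 tissue and age sets, each with H3K27ac ChIP and input DNA. For each set the authors deposited 1 list of super-enhancers and 1 of typical enhancers, with a signal per region as the deposited value. The submitters' processing notes name Zv9 as the build and, with no roles, the tools SICER 1.1, bedtools 2.24.0, SAMtools 0.1.8, Bowtie2 2.1.0 and CASAVA. How loci were joined, super-enhancers set apart, input used and replicates pooled is not given in the sources used here. In the 1-year heart every signal (14212 regions) is a whole number of ten-thousandths of a unit per bp times the length, so it is a total over the region. The match was taken after rounding to the nearest ten-thousandth of a signal unit, with a remainder of 0 on division by the length. In the 10-month heart 9840 regions lack this match. Of the 3962 that have it, 2040 carry a signal that no other matched region carries, and these alone were used for correlations, except where stated.

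Overlap, cover and edge-to-edge gaps were computed in Python 3.11.15 (pandas 2.3.3, numpy 2.4.6, scipy 1.17.1) and plotted with matplotlib 3.10.9. Interval steps were checked on simulated regions, and bedtools 2.31.1 also found 1104 regions. Length is end minus start, and positions are printed 1-based. Regions were named by fixed ranks: 5 each by signal per bp, length, loci, nearest and farthest super-enhancer and base pairs in a 10-month super-enhancer, the longest group, and 3 at each limit of the rule. Members and ranks were chosen with earlier results of these data known. No test over regions was made. Shares have exact Clopper-Pearson 95% intervals, and medians intervals from binomial order statistics. Alternatives to the overlap, exclusion and starting list were tried, and 2 on shared signals were added after seeing the data.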

Additional observations from a re-analysis of the deposited data

How the results depend on the processing

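Of 113 values recomputed under other settings, 68 stayed within the interval of the reported value (for the number of regions, within 1.5 times) and 45 did not. The correlation of signal per bp between the hearts, which has no interval, is counted as moved and was 0.430 with shared signals kept, against 0.909 (chosen after seeing the data). The cause was not tested beyond what each setting changes by construction. Requiring 50% of the 1-year region to be covered by the 10-month heart left 724 regions, with a median length of 2199 bp, 82.9% single loci, 0.512 units per bp and a median cover of 92.9%. Requiring 50% of the shorter region kept all results within their limits. With only 10-month regions whose signal matched their length, 328 regions were left, of which 5.18% lay in a 10-month super-enhancer, with a median cover of 67.5%. Allowing 10% of a region in other organs gave a median of 3799 bp, 56.9% single loci, 0.457 units per bp and 67.3% cover. Without the intestine lists there were 2812 regions, with a median of 4399 bp, 53.7% single loci, 17.9% within 100 kb of a 1-year super-enhancer, 3.98% in a 10-month super-enhancer and 68.7% cover. Without the brain lists there were 1667. With no other organ within 10 kb the median distance to a super-enhancer was 575 kb, and 0.923% lay in a 10-month super-enhancer. Single loci alone numbered 686, with 1999 bp, 0.519 units per bp, 85.7% cover and 0.437% in a 10-month super-enhancer. Regions of at least 1 kb had a median of 3399 bp, 61.4% single loci, 0.459 units per bp and 69.2% cover.

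Starting from the 10-month heart list gave a median of 1999 bp, 81.1% single loci, 0.574 units per bp over 405 regions whose signal matched their length (0.416 over the 57 whose signal matched no other region, an alternative chosen after seeing the data), a median cover of 100% by the 1-year heart, 6.37% in a 1-year super-enhancer, a median distance of 441 kb and 19.8% within 100 kb. Both of these 10-month values per bp are counted as moved from 0.474. The scale between the lists is not stated, so they cannot be compared with that 1-year value. Counting super-enhancers of either heart gave 389 kb and 18.5% for the 1104 regions. The share on chromosome 18 was 6.70% with 50% of the region covered, 3.02% with matched signal only, 23.1% without the intestine lists and 16.6% without the brain lists. Chromosome 18 was not the highest with 50% of the region covered (chromosome 5), with matched signal only (chromosome 10), without the intestine lists (chromosome 13), or with single loci alone or the 10-month list as the start (chromosome 9 in both).

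No paired analysis was possible because each set has 1 list with no value per replicate, and for the same reason leaving out a replicate was not run. Depth is unknown, and the limit of calling in each list was not tested. The 10-month heart rests on 1 ChIP library.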
